A study of Mus musculus with 234 samples.

Results

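The antioxidant enzymes described here are 10 genes that were taken by name from the table of counts: the glutathione peroxidases Gpx1, Gpx3 and Gpx4, the superoxide dismutases Sod1 and Sod2, catalase (Cat), the peroxiredoxin Prdx3, the thioredoxin reductase Txnrd1, heme oxygenase 1 (Hmox1) and the quinone reductase Nqo1. Each of the 10 names stood on a single row among the 55538 features, and all were kept. The cells were single cardiomyocytes (CMs) of 5 mice, 234 in all, each sequenced by SMART-seq2, a whole-transcript method without molecular identifiers.

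The transgene was human BAG3P209L fused to eGFP, driven by the ubiquitous CAG promoter behind a floxed STOP cassette in the Rosa26 locus, and the line came from 1 clone of embryonic stem cells. STOP was removed by PGK-Cre, a ubiquitous deleter. Homozygous mice carried the floxed allele on both chromosomes, with STOP deleted from 1 or from both. Per the methods the controls were siblings that were wildtype, PGK-Cre or flox on a mixed background, while the labels give them as C57BL/6. The mice were 2 weeks old according to the methods, except that no age is given for the heterozygous animal. Ventricles were dissociated by Langendorff perfusion and CMs were picked by hand, those of transgenic mice in classes of bright and dim eGFP fluorescence. The mice are named by their label number after an M. There were 24 and 9 control CMs (mice M26 and M73), 21 and 59 homozygous bright CMs (mice M25 and M116), 18 and 50 homozygous dim CMs of the same mice, and 27 bright and 26 dim CMs of the heterozygous mouse M72. The titles of mice M25 and M26 carried the same code and those of mice M116, M73 and M72 codes of a second kind. Among the latter, mice M73 and M72 shared a code, and mouse M116 shared none with a control mouse. The labels do not say what these codes stand for.

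Reactive oxygen species arise mainly as superoxide from the respiratory chain, which is dense in CMs. Superoxide dismutases turn superoxide into hydrogen peroxide, Sod2 in the mitochondrial matrix and Sod1 in the cytosol and the space between the mitochondrial membranes. Catalase, glutathione peroxidases and peroxiredoxins then reduce the peroxide, the peroxidases at the cost of glutathione and Prdx3 at the cost of mitochondrial thioredoxin. Txnrd1, Nqo1 and Hmox1 are classical targets of the transcription factor Nrf2, encoded by Nfe2l2.

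A total of 4 of the 10 enzymes are selenoproteins, in which a TGA codon is read as selenocysteine, the residue that carries the catalysis. The coding sequence around this codon is shown for these 4 because it is what they share and the other enzymes lack. The bases come from the principal transcripts of GENCODE M21 on GRCm38, 5′ to 3′ on the plus strand of their chromosomes, with the selenocysteine codon in capitals, up to 30 coding bases on each side:
Gpx1: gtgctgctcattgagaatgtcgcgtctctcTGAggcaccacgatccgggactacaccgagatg
Gpx3: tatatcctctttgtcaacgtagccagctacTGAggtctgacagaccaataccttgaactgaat
Gpx4: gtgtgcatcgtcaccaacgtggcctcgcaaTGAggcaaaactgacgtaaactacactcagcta
Txnrd1: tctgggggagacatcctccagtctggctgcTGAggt
The codon lies at chr9:108339451-108339453 in Gpx1 (codon 47 of 201), at chr11:54907256-54907258 in Gpx3 (codon 73 of 226), at chr10:80054737-80054739 in Gpx4 (codon 73 of 197) and at chr10:82896037-82896039 in Txnrd1. In Txnrd1 it is codon 498 of 499, so that only 3 coding bases follow.

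Levels are given as CPM, counts scaled to a total of 1000000 in the sum of the cells of 1 mouse and brightness class, since the animal is the replicate. The 8 sums held between 4096609 and 40508124 counts, and the smallest, control mouse M73, came from 9 cells. Single cells held between 487 and 1392253 counts, and 15 of them had fewer than 1000 detected genes. RNA of the transgene (hBAG) was at 0.408 and 0.488 CPM in the control sums, at 294 and 233 CPM in the homozygous bright sums of mice M25 and M116, and at 10.7 and 99.6 CPM in their dim sums. In mouse M72 it ran against the labels, with 105 CPM in the CMs labelled bright and 251 CPM in those labelled dim. All 8 cardiomyocyte markers were detected in every sum, at 75336 to 96297 CPM together. A total of 34 of the 234 wells held at least 1000 CPM of fibroblast, endothelial, macrophage or erythroid markers, and these marker wells held 15.3% of all counts. One well of the bright CMs of mouse M25 went against its label, with cardiomyocyte markers at 573 CPM and fibroblast markers at 50104 CPM. Fewer cells of a type and less RNA per cell cannot be told apart in such sums. Levels without these wells are given beside several results.

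Per kilobase of the principal transcript, Sod1 and Gpx4 were the most abundant of the 10 enzymes in each of the 8 sums. In the control CMs of mouse M26 Gpx4 stood at 513 CPM per kb, Sod1 at 444, Prdx3 at 217, Sod2 at 138, Gpx1 at 101 and Cat at 54.4. The remaining 4 were far lower in this sum, with Gpx3 at 18.3 CPM per kb, Nqo1 at 12.4, Txnrd1 at 7.32 and Hmox1 at 0.195. Gpx4 and Sod1 changed places between the control mice, with 439.8 CPM per kb for Gpx4 and 440.2 for Sod1 in mouse M73, whereas Sod1 was the higher in the 6 transgenic sums. Prdx3 held the third place in all 8 sums, and Hmox1 held the last in 7 of 8. The abundant enzymes were present in nearly every cell: Sod1 and Sod2 each had a count in 226 of 234 cells, Gpx4 in 225, Cat in 218, Prdx3 in 217 and Gpx1 in 212. Txnrd1 had a count in 140 cells, Gpx3 in 136, Nqo1 in 106 and Hmox1 in 12. The order per kilobase depends on the length used. Per kilobase of all annotated exons of a gene, Sod1 ranked 3 to 5 in the 8 sums, at 71.6 CPM per kb in control mouse M26, where Gpx4 was at 285 and Prdx3 at 217 CPM per kb. On that scale Gpx4 ranked first in 7 of the 8 sums, and Prdx3 in the dim sum of mouse M116.

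**Figure D1:**
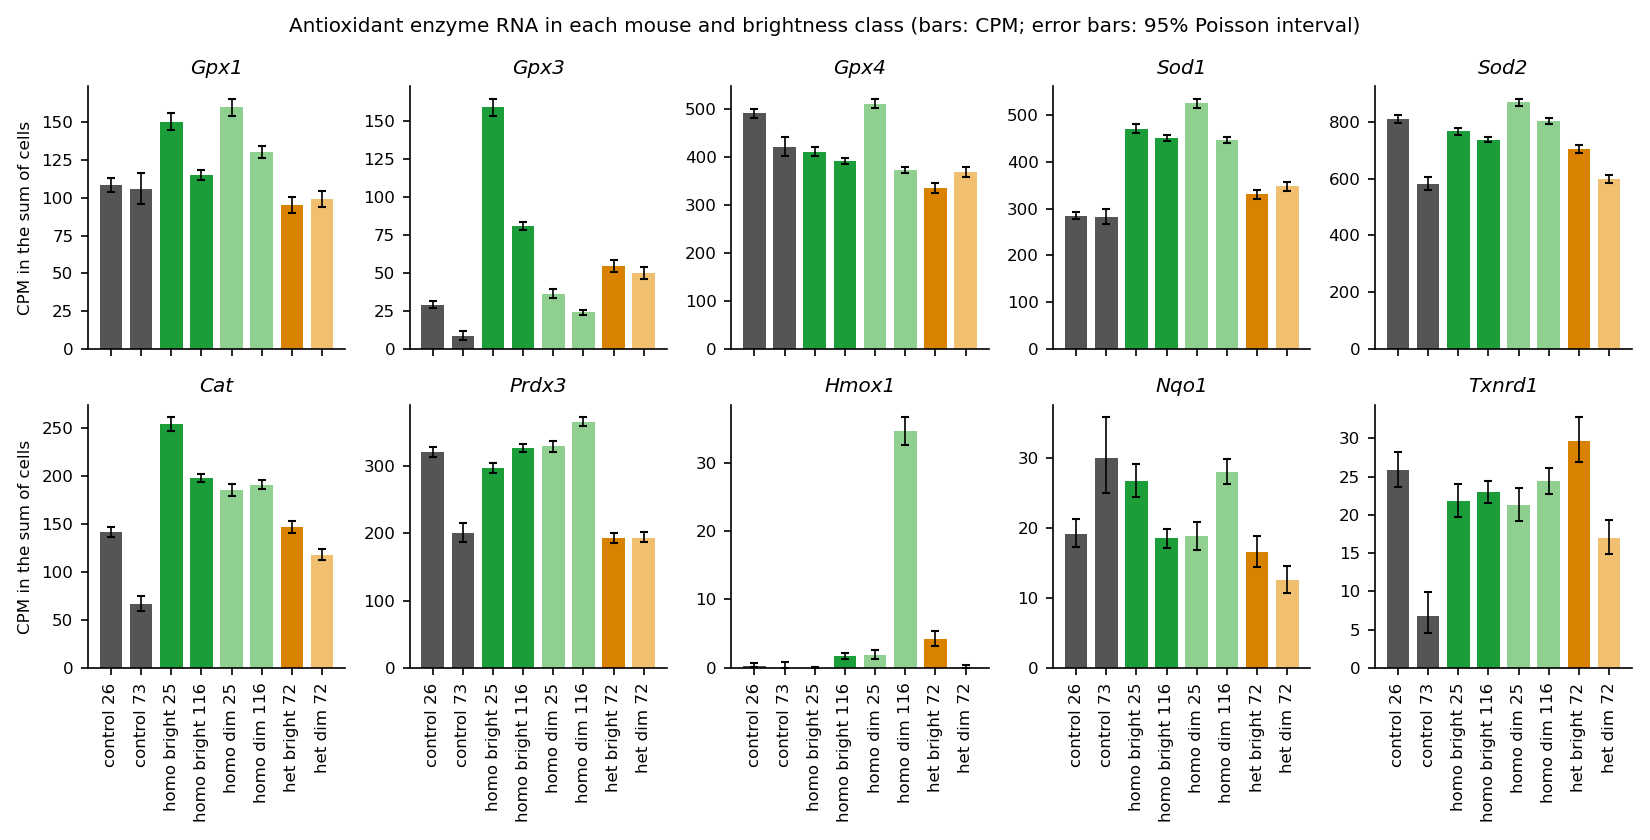
Bars give the level of each antioxidant enzyme in CPM for each mouse and brightness class, with 95% Poisson intervals that cover counting error only. Sod1 lies at 282 and 284 CPM in the control sums and between 446 and 525 CPM in the 4 homozygous sums, while Gpx3 is highest in the 2 homozygous bright sums and Hmox1 in the dim sum of mouse M116.

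The first comparison asked which of the enzymes differed between homozygous bright CMs and control CMs. None of the 9 enzymes tested passed the adjusted threshold of 0.05 in edgeR's quasi-likelihood test. Over all genes 2 of 12203 (0.0164%) passed, and these were the transgene features hBAG and BAG-eGFP, which are named here after their values were seen. With DESeq2 none of the enzymes passed either, against 1.4% of all genes. Gpx3 was the single enzyme with an unadjusted p under 0.05, against 6.55% of all genes. On the scale normalised by TMM factors both bright sums lay above both control sums for Gpx3, Sod1 and Cat and below them for Gpx4, against 24.3% of all genes above and 14.8% below. The median log2 fold change over the 9 enzymes was -0.01, against 0.11 over all genes tested. Hmox1 did not pass the filter on low counts here and has no test.

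Sod1, the copper-zinc superoxide dismutase of the cytosol, had nearly equal levels in both control mice, at 284 and 282 CPM, or 299 and 337 normalised CPM with the TMM factors of the fit of bright against control CMs. It stood at 471 and 451 CPM in bright CMs of mouse M25 and mouse M116 and at 525 and 446 CPM in their dim CMs. All 4 homozygous sums thus lay above both control sums. Group levels were 283 ± 1.57 CPM in control, 461 ± 14.4 CPM in bright and 486 ± 55.3 CPM in dim CMs (SD, n = 2 mice). The fitted log2 fold change against control was 0.38 (SE 0.28, 95% interval -0.29 to 1.05) in bright CMs, with an adjusted p of 0.925 from edgeR. In dim CMs it was 0.49 (SE 0.31, 95% interval -0.24 to 1.21), with an adjusted p of 0.975 from edgeR. The difference between the raw and the fitted scale comes from the TMM factors, which were 0.838 in control mouse M73 and 1.15 in bright mouse M116. With library size alone the fold changes of Sod1 were 0.70 and 0.78, with adjusted p of 0.757 and 0.754 from edgeR, while the median of all genes moved from 0.11 to 0.41 and from 0.10 to 0.38. Within a kind of code the values pointed the same way, with 0.54 for mouse M25 against mouse M26 and 0.22 for mouse M116 against mouse M73 in bright CMs, and 0.70 and 0.26 in dim CMs. Without the marker wells Sod1 remained at 437 and 457 CPM in bright and 540 and 443 CPM in dim CMs, against 282 CPM in both control sums.

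The stretch before the start of Sod1 is shown because all homozygous sums of Sod1 lay above both control sums, in CPM and with TMM factors. It comes from the RefSeq promoter table (GRCm38.p6), chr16:90220512-90220753 on the plus strand, and ends before the first base of the gene in GENCODE M21. Capitals mark the core of the antioxidant response element, TGACNNNGC, which is matched here on the opposite strand, and the TATA box TATAAA on the gene's own strand:
Sod1: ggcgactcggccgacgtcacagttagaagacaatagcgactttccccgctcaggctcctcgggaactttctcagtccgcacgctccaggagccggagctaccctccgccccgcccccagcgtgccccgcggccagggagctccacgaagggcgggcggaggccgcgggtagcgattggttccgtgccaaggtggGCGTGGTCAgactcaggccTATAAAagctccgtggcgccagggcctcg
Both motifs were searched on both strands in the 250 bases before each start, and they do not overlap in this stretch. TGACNNNGC was found in 10.2% and TATAAA in 12.4% of the 32851 promoter windows of the table. Promoter windows were matched for 9 of the 10 enzymes, 14 windows in all, since Gpx4 has 4 and Txnrd1 has 3 annotated starts. TGACNNNGC was matched in the window of Sod1 and in 1 of the 3 windows of Txnrd1, and TATAAA in those of Sod1, Nqo1 and Prdx3. All homozygous sums of Cat also lay above both control sums on both scales, and its window, which is not shown, held neither motif. A match is a description of the letters and not evidence of binding. The gene Sod1 (chr16:90220754-90226329) overlaps Scaf4 on the opposite strand in GENCODE M21, and reads of the 2 genes cannot be told apart if the counting ignored strand.

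Cat, the peroxisomal catalase at chr2:103453849-103485160 on the minus strand, was at 142 CPM in control mouse M26 and 67.1 CPM in control mouse M73. Its levels were 254 and 198 CPM in the bright and 186 and 191 CPM in the dim CMs of mice M25 and M116. All 4 homozygous sums lay above both control sums, but the control mice differed from each other by more than the dim sums did. The log2 fold change against control was 0.82 (SE 0.41, 95% interval -0.18 to 1.83) in bright CMs, with an adjusted p of 0.859 from edgeR. It was 0.57 (SE 0.41, 95% interval -0.41 to 1.56) in dim CMs, with an adjusted p of 0.980 from edgeR. The size of the difference depended on control mouse M73. Without it the values were 0.45 in bright and 0.18 in dim CMs, and without control mouse M26 they were 1.36 and 1.14. Without the marker wells Cat stood at 274 and 194 CPM in bright and 187 and 181 CPM in dim CMs, against 146 and 67.1 CPM in control CMs.

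**Figure D2:**
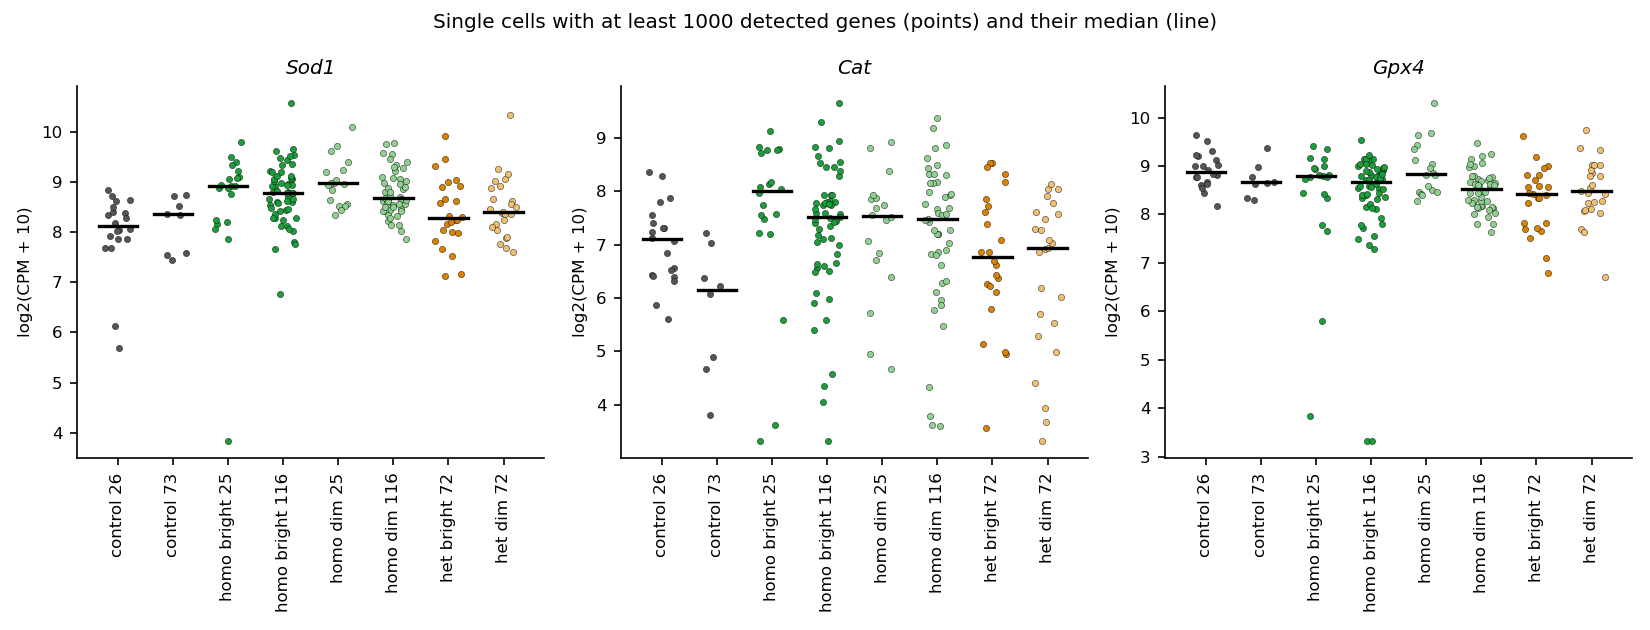
Each point is a cell with at least 1000 detected genes, on the scale log2(CPM + 10), and the line is the median of the cells of 1 mouse and brightness class. The cells of all classes overlap for Sod1, Cat and Gpx4, and the medians of Sod1 and Cat lie higher in the 4 homozygous classes than in both control classes.

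Gpx4, the peroxidase that reduces lipid peroxides within membranes (chr10:80047166-80056439, plus strand), was at 492 and 422 CPM in control mice M26 and M73. It was at 411 and 392.1 CPM in bright CMs of mouse M25 and mouse M116, both below the control sums. In their dim CMs it was at 512 and 374 CPM, above and below the control sums, and both dim sums fell below the controls on the scale with TMM factors only. The log2 fold change was -0.50 (SE 0.27, 95% interval -1.16 to 0.15) in bright against control CMs, with an adjusted p of 0.866 from edgeR. In dim against control CMs it was -0.33 (SE 0.32, 95% interval -1.10 to 0.44), with an adjusted p of 0.999 from edgeR. With library size alone these values shrank to -0.18 and -0.04, and with equal weight for each cell the value in dim CMs was 0.07. Without the marker wells Gpx4 stood at 434 and 382 CPM in bright CMs of mice M25 and M116, against 471 and 422 CPM in control CMs. The bright sum of mouse M25 then lay between the controls. A processed copy of the gene, Gpx4-ps2, carried counts equal to 8.74% to 10.9% of those of Gpx4 in the 8 sums. Reads may be split between them or, where they fit both equally well, be lost, since only uniquely aligned reads were counted.

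Gpx3, the secreted glutathione peroxidase (chr11:54902453-54910377, plus strand), had the largest difference between homozygous bright CMs and the other classes among the enzymes tested in bright against control CMs. It was at 29.1 CPM in control mouse M26 and 8.79 CPM in control mouse M73. In bright CMs of mouse M25 and mouse M116 it stood at 159 and 80.8 CPM, and in their dim CMs at 36.3 and 24.3 CPM. The bright sums thus lay above both control and both dim sums, whereas dim and control sums overlapped. The log2 fold change of bright against control CMs was 2.38 (SE 0.67, 95% interval 0.75 to 4.02), with an unadjusted p of 0.0115 and an adjusted p of 0.663 from edgeR. That of dim against control CMs was 0.42 (SE 0.75, 95% interval -1.36 to 2.19), with an adjusted p of 0.999 from edgeR. Without a filter on low counts the value in bright CMs was 2.41 and passed the threshold, with an adjusted p of 0.00868 from edgeR, where 163 genes passed in all.

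The counts of Gpx3 lay in few wells. In the bright CMs of mouse M25 the well with fibroblast markers at 50104 CPM held 1733 of the 3013 counts of Gpx3. Another well with fibroblast markers at 1782 CPM held 768 counts. Without the marker wells Gpx3 fell from 159 to 19.4 CPM in this sum, which is below the 23.6 CPM of control mouse M26. In the bright CMs of mouse M116 a single well held 1215 of 3274 counts, and its fibroblast markers were at 1.20 CPM and its cardiomyocyte markers at 64334 CPM. There Gpx3 was at 83.4 CPM without the marker wells and at 51.9 CPM without this well. The summed fibroblast markers stood at 2537 CPM in the bright sum of mouse M25 against 33.2 to 513 CPM in the other 7 sums. The bright sum of mouse M116 had 77.9 CPM, with all 7 fibroblast markers detected. Without the marker wells the log2 fold change against control was 1.35 (unadjusted p = 0.151, adjusted p = 0.996, edgeR). The median over cells was 9.36 and 8.64 CPM in bright CMs of mouse M25 and mouse M116, against 14.1 and 0 CPM in control mice M26 and M73, so that the cells in the middle of the bright classes did not lie above those of both controls.

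**Figure D3:**
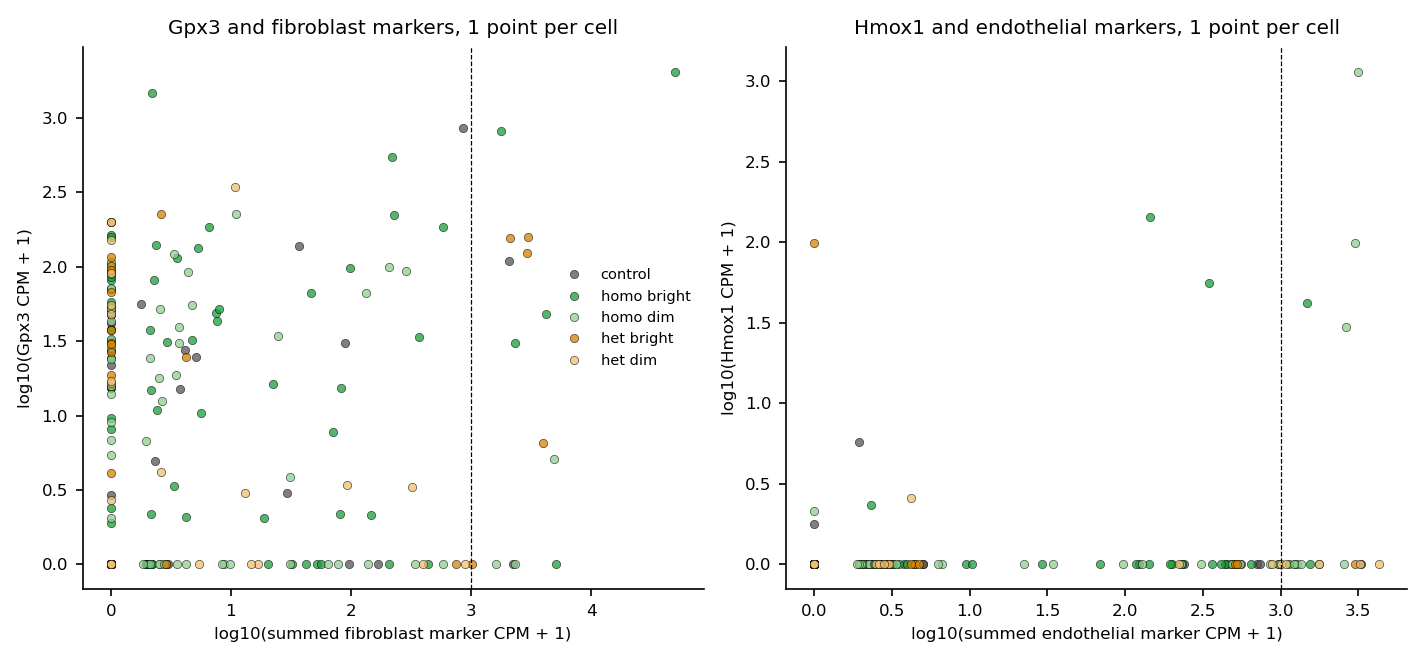
Each point is a cell, with the summed markers of fibroblasts (left) or endothelial cells (right) on the x axis and Gpx3 or Hmox1 on the y axis, as log10(CPM + 1). The dashed line marks 1000 CPM, and the highest Gpx3 well lies at 50104 CPM of fibroblast markers, the highest Hmox1 well at 3158 CPM of endothelial markers.

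Gpx1, the glutathione peroxidase of the cytosol and mitochondria (chr9:108338903-108340343, plus strand), was at 108 and 106 CPM in control mice M26 and M73, at 150 and 115 CPM in bright and at 160 and 130 CPM in dim CMs of mice M25 and M116. The 4 homozygous sums lay above the control sums in CPM, but with TMM factors the groups overlapped. The fitted log2 fold changes against control were -0.01 (SE 0.35) in bright and 0.15 (SE 0.35) in dim CMs. In control mouse M73 a single well held 67.1% of the counts of Gpx1, and the sum was at 39.7 CPM without it.

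Sod2 (chr17:13006846-13040063, plus strand) and Prdx3 (chr19:60864051-60874556, minus strand), both mitochondrial, overlapped between homozygous and control CMs on the scale with TMM factors. Sod2 was at 810 and 582 CPM in control mice M26 and M73, at 766 and 737 CPM in bright and at 868 and 803 CPM in dim CMs. Prdx3 was at 321 and 201 CPM in control, at 298 and 327 CPM in bright and at 329 and 366 CPM in dim CMs, where both sums lay above both control sums in CPM. Without the marker wells Prdx3 was at 323 and 383 CPM in dim CMs of mice M25 and M116, against 324 and 201 CPM in control CMs. The dim sum of mouse M25 then lay between the controls. For both Sod2 and Prdx3 control mouse M73 was the lowest of the 6 sums over all wells. The 95% intervals of the log2 fold changes in bright against control CMs ran from -0.85 to 0.46 for Sod2 and from -0.80 to 0.70 for Prdx3.

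Txnrd1 (chr10:82833951-82897712, plus strand) and Nqo1 (chr8:107388225-107403206, minus strand) had low counts, and the control mice differed widely in both. Txnrd1, which keeps cytosolic thioredoxin reduced, was at 25.8 and 6.83 CPM in control mice M26 and M73, and between 21.3 and 24.4 CPM in the 4 homozygous sums. Nqo1, which reduces quinones, was at 19.2 and 30.02 CPM in control and between 18.5 and 28.1 CPM in the homozygous sums. The homozygous values lay within the range of the controls for Txnrd1, and for Nqo1 2 of them lay just under it. In control mouse M73 a single well held 72.4% of the counts of Nqo1, and in control mouse M26 a single well held 249 of the 506 counts of Txnrd1. When the well with the most counts of the gene was left out of every sum, Txnrd1 was at 13.7 and 3.76 CPM in control and between 15.2 and 20.2 CPM in homozygous sums, and Nqo1 at 13.3 and 9.74 CPM in control and between 15.6 and 23.9 CPM in homozygous sums, so that the order against the controls rests on single wells. Leaving out the marker wells, Nqo1 fell from 18.8 to 12.9 CPM in the dim CMs of mouse M25, below both controls, and Txnrd1 from 21.8 to 16.3 CPM in its bright CMs. Intervals of the fold change against control were wide, from -1.79 to 2.14 for Txnrd1 and from -2.04 to 1.13 for Nqo1 in bright CMs on the log2 scale. Txnrd1 overlaps Eid3 on the same strand in GENCODE M21, and counts there can be shared or lost.

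The second comparison asked the same of homozygous dim CMs, which are set against the same control sums. None of the 10 enzymes and none of 12195 genes (0%) passed the adjusted threshold with edgeR. Hmox1 was the single enzyme with an unadjusted p under 0.05, as were 759 genes in all (6.22%). With DESeq2, 128 genes (1.03%) were called, Hmox1 included. On the normalised scale both dim sums lay above both control sums for Hmox1, Sod1 and Cat and below them for Gpx4, against 23.8% of all genes above and 14.2% below. The median log2 fold change over the 10 enzymes was 0.18, against 0.10 over all genes tested.

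Hmox1, the inducible enzyme that degrades heme to biliverdin, iron and carbon monoxide (chr8:75093621-75100589, plus strand), was close to absent from these cells. It had 6 counts in control mouse M26 (0.306 CPM) and 0 counts in control mouse M73, which allows up to 0.732 CPM. In the dim CMs of mice M25 and M116 it was at 1.90 and 34.6 CPM. In their bright CMs it was at 0 CPM, which allows up to 0.159 CPM, and at 1.73 CPM. The level of 34.6 CPM thus stood apart from the 7 other sums, and 1118 counts, or 93.9% of it, came from 1 well. That well had endothelial markers at 3158 CPM, macrophage markers at 420 CPM and cardiomyocyte markers at 55300 CPM. The second dim sum, of mouse M25, also owed all of its Hmox1 to 1 well, with erythroid markers at 5248 CPM, endothelial markers at 2630 CPM and fibroblast markers at 340 CPM. Across all 234 cells 6 had at least 10 counts of Hmox1, and all 6 held at least 100 CPM of the markers of other cell types, as did 74 cells overall. Marker wells at 1000 CPM held 92.1% of the 1361 counts. Without them Hmox1 was at 0 CPM and 0.0358 CPM in the dim CMs of mice M25 and M116. The fitted log2 fold change of dim against control CMs was 6.17 (SE 1.98), with an unadjusted p of 0.0176 and an adjusted p of 0.735 from edgeR. DESeq2 gave 6.27 with an adjusted p of 0.0262. Both rest on a control group with 6 counts. Without the dim sum of mouse M116 the edgeR value was 3.14 (adjusted p = 1.00). Summed macrophage markers were at 80.6 and 67.0 CPM in the dim sums against 0.264 to 25.6 CPM elsewhere, and Ptprc was at 0 in mouse M25 and Cd163 in mouse M116.

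The third comparison set bright against dim CMs of the same homozygous mice. The main fit had no term for the mouse and so ignored this pairing, and the fit with the mouse as a block is given further below. None of 13439 genes (0%) passed with edgeR. Among the enzymes Gpx3 was below an unadjusted p of 0.05, against 4.12% of all genes (554), and DESeq2 called it, against 1.02% (136 genes). On the scale with TMM factors both bright sums lay above both dim sums for Gpx3 and below them for Sod2, Prdx3 and Hmox1, against 15.1% of all genes above and 16% below. The median log2 fold change was -0.13 over the 10 enzymes and -0.01 over all genes tested.

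For Gpx3 the log2 fold change of bright against dim CMs was 1.97 (SE 0.45, 95% interval 0.84 to 3.10), with an unadjusted p of 0.00586 and an adjusted p of 0.999 from edgeR. Bright exceeded dim in both mice, by 2.08 in mouse M25 and 1.66 in mouse M116 on the log2 scale. DESeq2 gave 1.98 with an adjusted p of 0.00336. Without the marker wells the value was 0.49 (adjusted p = 1.00, edgeR), and within mouse M25 the order then turned, with 19.4 CPM in bright and 40.0 CPM in dim CMs. In mouse M116 bright CMs remained the higher without those wells, at 83.4 against 27.0 CPM.

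On the scale with TMM factors Sod2, Prdx3, Gpx1, Sod1 and Hmox1 were lower in bright than in dim CMs of each mouse, though in CPM Sod1 was higher in the bright CMs of mouse M116. The log2 fold changes between bright and dim CMs were -0.18 (SE 0.19) for Sod2 and -0.18 (SE 0.18) for Prdx3, with an adjusted p of 0.999 from edgeR for both. Sod1 (-0.11, SE 0.21), Cat (0.24, SE 0.24), Gpx1 (-0.15, SE 0.27) and Gpx4 (-0.18, SE 0.25) had intervals that held 0, and their sums overlapped on the scale with TMM factors. In CPM the bright sums of Cat lay above both dim sums. For Txnrd1 the value was -0.06 (SE 0.34) and for Nqo1 -0.07 (SE 0.41). For Hmox1 it was -4.38 (SE 2.01, adjusted p = 0.999, edgeR), and it was -1.22 without the dim sum of mouse M116. With the marker wells left out Hmox1 was at 1.10 CPM in bright and 0.0358 CPM in dim CMs of mouse M116, the reverse order, and at 0 CPM in both classes of mouse M25. The interval for Sod1 ran from -0.62 to 0.41, which leaves room for a modest difference in either direction.

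**Figure D4:**
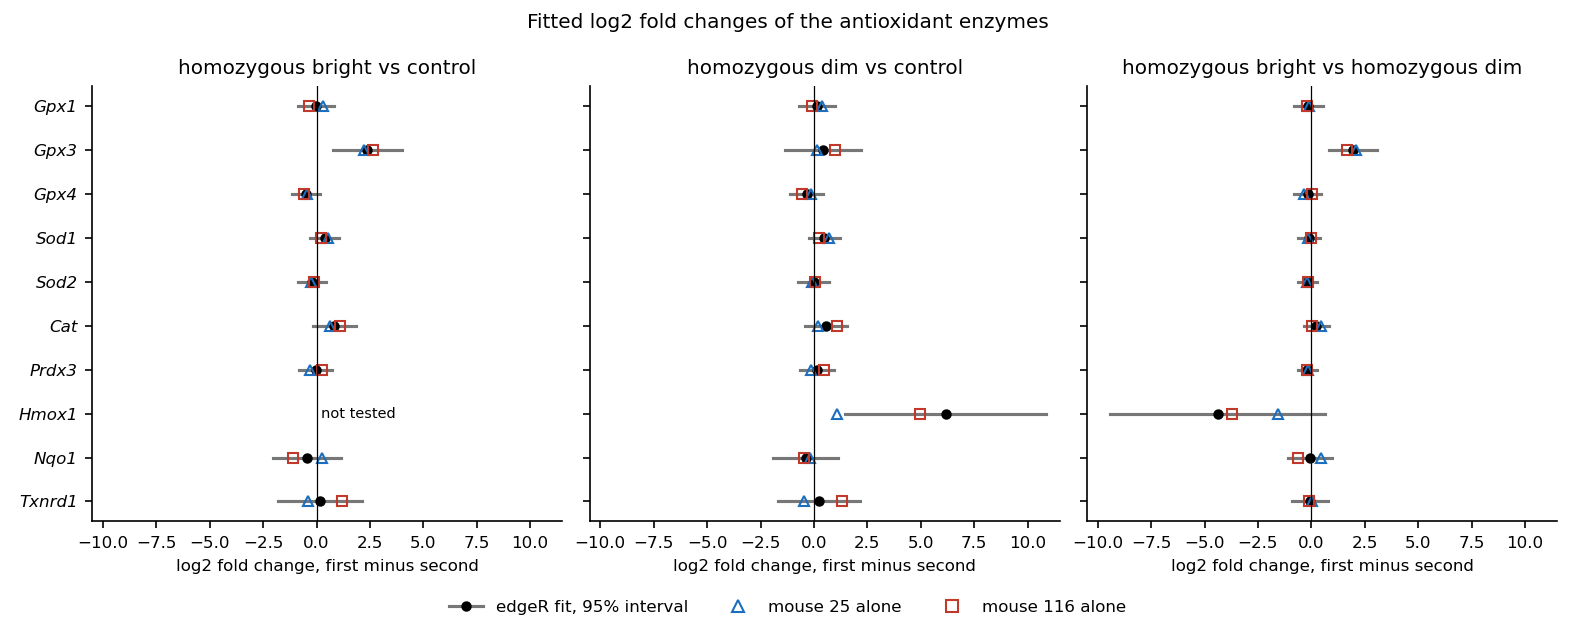
Black points give the log2 fold change of each enzyme in the 3 comparisons with its 95% interval from edgeR. Open symbols give the values for mouse M25 and mouse M116 alone, each against the control mouse with the same kind of code or its own dim CMs, on the scale log2(normalised CPM + 1). Intervals exclude 0 for Gpx3 in bright against control and bright against dim CMs and for Hmox1 in dim against control CMs, and Hmox1 was not tested in bright against control CMs.

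The heterozygous mouse M72 has no replicate, and its values carry no test. Intervals for ratios of counts are exact Clopper-Pearson intervals at the 95% level, which cover counting error only. Sod1 was at 331 CPM in the CMs labelled bright and 348 CPM in those labelled dim, between the control sums and the homozygous sums. Against control mouse M73, which shares its title code, the ratios were 1.17 (1.10 to 1.25) and 1.23 (1.16 to 1.32). Against control mouse M26 they were 1.16 and 1.22. Gpx4, at 336 and 369 CPM, lay below both control sums, with ratios of 0.796 (0.753 to 0.842) and 0.875 (0.829 to 0.925) to mouse M73. Prdx3, at 193 and 194 CPM, also lay under both control sums, though the interval of its ratio to mouse M73 held 1. Cat was at 147 and 118 CPM and Sod2 at 705 and 598 CPM. For Cat the ratio of the CMs labelled bright to control mouse M26 was 1.04 (0.977 to 1.10), and the value in CMs labelled dim lay between the control sums. Both values of Sod2 lay between the control sums. Gpx3 was at 54.6 and 49.8 CPM, above both control sums, and Gpx1 at 95.2 and 99.3 CPM, below them. Nqo1 was at 16.5 and 12.6 CPM and Txnrd1 at 29.7 and 17.0 CPM. Hmox1 had 58 counts in the CMs labelled bright, all in 1 well with macrophage markers at 566 CPM, and 1 count in those labelled dim. The brightness labels of this mouse ran against its transgene RNA and were kept as given, and whether they were exchanged was not tested. With equal weight for each cell several of these ratios lay on the other side of 1. Gpx4 then had ratios of 1.04 and 1.17 to mouse M73 in CMs labelled bright and dim, Sod1 had 0.863 and 0.971 to mouse M26, and Gpx3 had 0.765 and 0.738 to mouse M26. Over cells with at least 1000 detected genes alone, these means gave ratios of 0.798 and 0.912 for Gpx4, 1.33 and 1.42 for Sod1 and 1.83 and 1.63 for Gpx3, on the same side of 1 as the sums.

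Marker wells were 7 of the 27 CMs labelled bright and 4 of the 26 labelled dim of mouse M72. Without them Prdx3 was at 138 and 178 CPM in CMs labelled bright and dim, and its ratio to control mouse M73 fell from 0.962 to 0.685 in those labelled bright, where 1 well with fibroblast markers at 2980 CPM held 791 of 2674 counts. Txnrd1 was then at 19.4 and 14.4 CPM. Cat stood at 141 and 127 CPM without these wells, between the 67.1 and 146 CPM of the control sums. Gpx1 stood at 103 CPM in CMs labelled bright, between the 101 and 106 CPM of the control sums, and at 93.02 CPM in those labelled dim. Gpx4 was at 358 and 355 CPM and remained below both control sums, and Sod1 at 346 and 359 CPM and Gpx3 at 43.2 and 58.1 CPM remained above them. Sod2 was at 743 and 596 CPM, Nqo1 at 19.4 and 11.9 CPM and Hmox1 at 5.62 and 0.0864 CPM. Gpx1 and Gpx4 were then higher, and Gpx3 lower, in CMs labelled bright than in those labelled dim, the reverse of their order over all wells.

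Within a class, the levels of the enzymes were set against that of the transgene from cell to cell. Spearman's rho with hBAG was computed in each of the 6 transgenic sums, over 18 to 56 cells with at least 1000 genes that share library chemistry and vary in depth. It ranged from -0.46 for Prdx3 to 0.47 for Gpx1, both in the heterozygous CMs labelled bright. None of the 9 enzymes other than Hmox1 had the same sign in all 6 sums.

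Across 219 cells, with each class centred on its own mean, the enzymes varied largely apart from each other. Of the 28 pairs among the 8 enzymes detected in at least 50% of these cells, Sod2 with Cat (Pearson r = 0.32) and Gpx4 with Sod1 (r = 0.32) were the closest. Among 4913 genes, the ones most like Gpx4 were its copy Gpx4-ps2 (r = 0.72), Ndufc2, a subunit of respiratory complex I (0.70), and the adenylate kinase Ak1 (0.63). Those most like Sod2 were Atp5c1 of the ATP synthase (0.60), Crip2 (0.57) and Cox14 (0.56). For Sod1 they were Uqcr10 of complex III (0.47), Fxyd1 (0.47) and Cox4i1 of complex IV (0.46). Cat was closest to Gapdh (0.39), Map1lc3a (0.37) and Cox14 (0.36), and Prdx3 to Bsg (0.40), Got1 (0.39) and Aldoa (0.39). Gpx1 was closest to Atp5g3 (0.31), Cox14 (0.30) and Hspb6 (0.29). For Gpx3 the leading genes were Iah1 (0.34), Gm13456 (0.33) and B2m (0.30), and for Txnrd1 Hspg2 (0.29), Smim14 (0.28) and Rpp25l (0.28). The median over all genes was between 0.04 for Gpx3 and 0.10 for Gpx4. These cells share libraries and mice, and the values describe these cells only.

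The wider antioxidant system was followed with 8 lists of 73 genes. None of the genes tested passed the adjusted threshold of edgeR in any of the 3 comparisons, with 66 tested in bright against control, 68 in dim against control and 72 in bright against dim CMs. On the scale with TMM factors, in bright against control CMs 14 lay above and 10 below both control sums, against 24.3% and 14.8% of all genes, and the median log2 fold change was 0.13, against 0.11 over all genes. In dim against control CMs these counts were 17 and 9, against 23.8% and 14.2% of all genes, and the median was 0.16. In bright against dim CMs they were 8 and 12, against 15.1% and 16% of all genes, with a median of -0.01. An unadjusted p under 0.05 was found for 3 of the 66, 3 of the 68 and 4 of the 72 genes, against 6.55%, 6.22% and 4.12% of all genes. Sesn2, which had no counts in either control sum, was among the 3 of the 66.

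The genes at the ends of each list in bright against control CMs are given as log2 fold changes, and none passed the adjusted threshold. Among the 9 genes listed under removal of superoxide and peroxide, Ccs, the copper chaperone of Sod1, had the highest value (2.03, SE 0.98). Prdx5 had the lowest (-0.45, SE 0.33). Ccs was at 21.8 and 31.5 normalised CPM in bright CMs against 10.7 and 2.04 in control CMs. Of the thioredoxin and glutaredoxin list Msra was highest (1.85, SE 1.45) and Msrb1 lowest (-2.20, SE 0.65). Msrb1, a selenoprotein that repairs oxidised methionine, stood at 6.74 and 8.84 normalised CPM against 34.9 and 36.8, with p = 0.0142 unadjusted and 0.663 adjusted (edgeR).

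Of the genes that supply glutathione and NADPH, Gclm, the modifier subunit of the first enzyme of glutathione synthesis, was highest (2.86, SE 1.18). It was at 10.2 and 11.8 normalised CPM against 1.56 and 1.46 in control CMs, with an adjusted p of 0.766 (edgeR). Pgd of the pentose phosphate pathway was lowest (-0.83, SE 0.58). Among the glutathione transferases Mgst1 (0.84, SE 2.08) and Gstk1 (-1.12, SE 0.70) were at the ends, and among the genes of heme and iron handling Blvrb (0.94, SE 1.09) and the ferritin light chain Ftl1 (-0.89, SE 0.53).

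Of the regulators, Nfe2l2 had the lowest value (-1.02, SE 0.57), with 47.2 and 53.9 normalised CPM in bright CMs against 51.7 and 155 in control CMs. The groups overlapped, and control mouse M73 alone stood apart. Sesn2 was at 2.10 and 3.41 normalised CPM in bright CMs and at 0 in both control sums. It thus passed the filter on low counts through the bright sums alone, which fixed its direction. Its unadjusted p of 0.0183 and adjusted p of 0.663 from edgeR take no account of this. In the list of selenoprotein synthesis Sepsecs (2.28, SE 1.70) and Eefsec (-0.73, SE 1.97) were at the ends. Among the sources of oxidants 3 of 7 genes were tested, with Maoa (4.78, SE 1.87, under 2 normalised CPM in each sum) and Maob (-2.11, SE 1.78) at the ends.

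Cell type markers moved beside these values. In bright against control CMs 6 of 8 cardiomyocyte markers lay below both control sums, against 14.8% of all genes, with a median log2 fold change of -0.71, and the 7 fibroblast markers had a median of 3.66, with 1 of them above both control sums, against 24.3% of all genes. There 3 of the 5 pericyte and smooth muscle markers tested lay below both control sums and 1 above them, against 14.8% and 24.3% of all genes. Their median was -1.80, but the 6 markers of the list summed to 203 and 270 CPM in bright and 216 and 265 CPM in control CMs. Of the 7 endothelial markers 3 lay below and 1 above both control sums. In dim against control CMs 5 of 8 cardiomyocyte markers lay below both control sums, against 14.2% of all genes, with a median of -0.67, and 6 of the 7 macrophage markers tested and 4 of 7 endothelial markers lay above them, against 23.8% of all genes. In bright against dim CMs all 7 endothelial markers and the 6 macrophage markers tested, of 8, lay below both dim sums, against 16% of all genes. The dissociation and stress genes summed to 170 and 78.1 CPM in control, 556 and 479 CPM in bright and 188 and 572 CPM in dim CMs. Their part in the levels of the enzymes was not tested, apart from the values without marker wells given above.

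With 2 mice per group an exact permutation test could not fall below a two-sided p of 0.33, so that the values above rest on the fit across all genes. Each group is no more than 2 animals, and 1 of the control animals gave 9 cells.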

How the data were processed

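The authors aligned the reads of each CM with STAR to the mouse genome, to which human BAG3 and eGFP transcripts were added, and counted uniquely aligned reads per gene with STAR. They deposited raw counts as whole numbers for 234 cells and 55538 features. The genome build, annotation and strand setting are not given in the sources used here, so that positions come from GENCODE M21 (GRCm38), which held 55146 of the symbols.

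Deposited counts were summed per mouse and brightness class and compared, 2 mice against 2, by the quasi-likelihood test of edgeR 4.0.16 (R 4.3.3; filterByExpr and TMM factors, with Benjamini-Hochberg adjustment over all genes tested and a threshold of 0.05). Alternatives were DESeq2 1.42.0, library size alone, no filter on low counts, cells with at least 1000 genes, equal weight for each cell with limma 3.58.1 on log2(mean CPM + 1), the kind of title code or the mouse as a block, and leaving out each sum. Sums without wells at 1000 or 100 CPM of other cell types' markers, sums without the well with the most counts of a gene, and equal weight over cells with at least 1000 genes were added after the data were seen. The scripts were tested on simulated counts. Single counts have exact Poisson intervals, a count of 0 allows up to 3 counts, and both cover counting error only. Nothing in the labels calls the mice of a group littermates or separate preparations.

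The enzymes, the wider lists and the markers were chosen with earlier results of these data known. All 10 enzymes were named, and of each wider list the genes with the highest and lowest fold change of bright against control CMs. The 3 genes most like an enzyme had the largest Pearson correlation of log2(CPM + 10), centred within class. Bright and dim sums are paired because they come from the same animals. Over 9324 genes, which are not independent, the log2 difference between both mice in one class had a Pearson r of 0.11 (Spearman rho 0.16) with that in the other.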

Additional observations from a re-analysis of the deposited data

Results flagged for a closer look

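A total of 2 enzymes had a difference between bright and dim CMs that pointed one way in both homozygous mice and the other way in the heterozygous mouse, and the difference between the genotypes was not tested, since there was 1 heterozygous animal. Sod2 was higher in the CMs labelled bright than in those labelled dim by 107 CPM in mouse M72, whereas bright minus dim was -102 CPM in the homozygous mouse M25 and -66.3 CPM in mouse M116. Hmox1 was higher in the CMs labelled bright by 4.11 CPM in mouse M72, with all 58 counts in 1 well, and bright minus dim was -1.90 and -32.8 CPM in mice M25 and M116. Without wells at 1000 CPM of other cell types' markers Hmox1 was at 0 CPM in both classes of mouse M25 and at 1.10 CPM in bright and 0.0358 CPM in dim CMs of mouse M116, so that this shared direction was lost. RNA of the transgene ran against the brightness labels in mouse M72, at 105 CPM in the CMs labelled bright and 251 CPM in those labelled dim. Whether its labels were exchanged was not tested. With bright and dim exchanged, Sod2 and Hmox1 would have the sign they had in both homozygous mice, and Gpx1, Gpx3, Cat and Prdx3, which have that sign as labelled, would lose it. With these wells left out the signs of Gpx1 and Gpx3 were not shared by the 3 mice as labelled, since Gpx1 was at 103 and 93.02 CPM in CMs labelled bright and dim of mouse M72, and Gpx3 was at 19.4 CPM in bright and 40.00 CPM in dim CMs of mouse M25.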

How the results depend on the processing

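Over 344 values of the single enzymes under alternatives, 293 kept their direction and their side of the threshold, 6 passed the threshold anew and 45 changed sign. Sod1 and Cat kept their sign against control CMs under all alternatives run, and Gpx3 and Gpx4 did so in bright CMs. In dim CMs Gpx3 turned without control mouse M73 (-0.16) and Gpx4 with equal weight for each cell (0.073). Hmox1 kept its sign in dim CMs in the 10 alternatives that gave it a value. The cause of the changes below was not tested. Fold changes are log2.

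In bright against control CMs, DESeq2 called 177 genes and the fit without a filter 163, with 1 antioxidant enzyme (Gpx3), against 2. Equal weight for each cell called 0 genes, and the kind of title code as a block 10. Gpx1, Sod2 and Prdx3 changed sign to 0.31, 0.11 and 0.26 with library size alone, and to 0.51, 0.22 and 0.42 with equal weight for each cell, as did Nqo1 (0.14). Gpx1 became 0.034 without a filter. Without wells at 1000 CPM of markers Gpx1 was 0.077 and Prdx3 0.024, and without those at 100 CPM Gpx1 was 0.86, Sod2 0.039, Prdx3 0.35 and Nqo1 0.45. Leaving out 1 sum gave between 0 (without control mouse M26) and 41 genes (without bright mouse M116). It gave -0.22 to 0.20 for Gpx1, -0.27 to 0.24 for Prdx3, -0.80 to 0.014 for Nqo1 and -0.44 to 1.31 for Txnrd1.

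In dim against control CMs, DESeq2 called 128 genes with 1 enzyme (Hmox1) and the fit without a filter 58, against 0. The kind of title code as a block called 12 genes. Sod2 changed sign to 0.26 with library size alone, 0.020 without a filter, 0.37 with equal weight, 0.014 without wells at 1000 CPM and 0.17 without those at 100 CPM. Gpx4 became 0.073 and Nqo1 0.25 with equal weight, and Nqo1 0.44 without wells at 100 CPM. Leaving out 1 sum gave between 3 (without control mouse M73) and 827 genes (without control mouse M26), so that the remaining control was 9 CMs. It gave -0.0039 to 0.31 for Gpx1, -0.16 to 1.44 for Gpx3, -0.18 to 0.17 for Sod2, -0.11 to 0.44 for Prdx3, -0.72 to 0.060 for Nqo1 and -0.40 to 1.39 for Txnrd1.

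In bright against dim CMs, DESeq2 called 136 genes with 1 enzyme (Gpx3) and the fit without a filter 217 with 2 (Gpx3 and Hmox1), against 0. Nqo1 was 0.18 without wells at 1000 CPM and 0.0073 without those at 100 CPM. Leaving out 1 sum gave between 0 and 74 genes and between 0 and 1 enzymes, the higher values without bright mouse M116, where Gpx3 was 2.41 (adjusted p = 0.0467, edgeR). It gave -0.42 to 0.068 for Gpx1, -0.41 to 0.12 for Gpx4, -0.25 to 0.060 for Sod1, -0.0056 to 0.45 for Cat, -0.41 to 0.22 for Nqo1 and -0.11 to 0.010 for Txnrd1. With the mouse as a replicate block 0 genes passed, Gpx3 had a value of 1.90 (adjusted p = 1, edgeR), and the block changed no call of an enzyme. In the heterozygous mouse 6 of 10 enzymes had a ratio of CMs labelled bright to labelled dim above 1, and 5 to 7 did so under the alternatives. The other 4 had a ratio below 1, so that 4 would lie above 1 if the labels were exchanged, which was not tested. Of 38 ratios of its CMs to a control mouse, 12 lay on the other side of 1 with equal weight for each cell, 3 with equal weight over cells of at least 1000 genes, 3 without wells at 1000 CPM and 0 with only cells of at least 1000 genes. Fits without a sum take the spread of a group of 1 mouse from the group of 2.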

Other observations

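The 10 antioxidant enzymes together made up 2232 and 1705 CPM in control mice M26 and M73, 2558 and 2344 CPM in homozygous bright CMs, 2658 and 2422 CPM in homozygous dim CMs, and 1912 and 1806 CPM in the CMs labelled bright and dim of mouse M72. In CPM all 4 homozygous sums lay above both control sums, and both heterozygous sums lay between the controls. With TMM factors the homozygous and control sums overlapped, at 2357 and 2031 normalised CPM in bright against 2343 and 2035 in control CMs, and at 2470 and 2124 in dim against 2356 and 1983 in control CMs.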
